A study of Mus musculus with 6 samples.

Results

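Scd1 and the enzymes that build fatty acids were read on 6 whole-transcript arrays of mouse marrow stem and progenitor cells. The 8 genes were Scd1, Scd2, Scd3, Fasn, Acaca, Acly, Elovl6 and Srebf1. Every probe set, the group of probes that stands for a transcript, was taken when its single platform symbol was one of these genes. This gave 9 of the 34499 probe sets with values, 2 for Acaca and 1 for each other gene.

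The arrays formed 3 groups of 2 biological replicates. Alox5-/- LSC denotes leukaemia stem cells that carry BCR-ABL, the fusion kinase of chronic myeloid leukaemia, and come from donors lacking Alox5. LSC denotes BCR-ABL cells from wild-type (WT) donors, and HSC denotes WT cells of the same surface phenotype without BCR-ABL, labelled as vector. All 3 groups had the strain C57BL/6 (B6) and an age of 8 weeks, and donors had received 5-fluorouracil before their marrow was transduced. The retrovirus carried BCR-ABL with GFP or GFP alone, and all cells passed through B6 recipients for 14 days before GFP+Lin-c-Kit+Sca-1+ cells were sorted. Alox5 was therefore missing from the transplanted cells and not from the host, and expression of BCR-ABL was driven by a retrovirus. The number of animals behind an array is not given, so p-values measure the spread between these samples only. An Alox5-/- group without BCR-ABL was not analysed here.

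Fatty acid synthesis turns citrate into long-chain fatty acids in the cytosol. Acly cleaves citrate to acetyl-CoA, Acaca carboxylates acetyl-CoA to malonyl-CoA, and Fasn joins these units into palmitate. Elovl6 lengthens palmitate to stearate, and stearoyl-CoA desaturases of the Scd family place a double bond in both, giving palmitoleate and oleate for membranes and stored lipid. Srebf1 encodes SREBP-1, the transcription factor that is cleaved from a membrane precursor and switches these enzymes on. Scd1 has also been studied in BCR-ABL stem cells by the laboratory that made these arrays, and the arrays allow its score to be set beside the whole pathway.

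Scd3, Scd2, Scd4 and Scd1 are 4 consecutive protein-coding genes in RefSeq (assembly GRCm38.p6). Whether probes of 1 Scd gene also match another was not tested, so values of these related genes are uncertain to that extent. RefSeq start-site windows, from 250 bases before to 50 after the start, were found for 6 of the 8 members and numbered 8, of which 3 belonged to Srebf1. Those not matched were Scd1 and Scd2. Windows were searched on both strands for CCAAT, the box bound by NF-Y, for GGGCGG, the box bound by Sp1, for CACGTG, an E-box, and for TCACNCCAC, a sterol regulatory element. CCAAT was found in 4 of the 8 windows and in 37.4% of all 32851 windows of that length. GGGCGG was found in 3 of the 8 and in 35.7% of all. CACGTG and TCACNCCAC were found in 0 of the 8, and in 7.15% and 1.24% of all. The windows of Acaca, Elovl6 and Scd3 held none of these motifs. A match describes the sequence and does not show a bound site.

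The Acly and Fasn windows are shown because Acly was the member with the smallest p in the comparisons with Alox5-/- LSCs and Fasn the member whose score varied least. The Acly window lies at chr11:100527951-100528250 and that of Fasn at chr11:120824498-120824797, both on the minus strand of GRCm38.p6 and both printed 5′ to 3′. Capitals mark matches to the motifs.
Acly: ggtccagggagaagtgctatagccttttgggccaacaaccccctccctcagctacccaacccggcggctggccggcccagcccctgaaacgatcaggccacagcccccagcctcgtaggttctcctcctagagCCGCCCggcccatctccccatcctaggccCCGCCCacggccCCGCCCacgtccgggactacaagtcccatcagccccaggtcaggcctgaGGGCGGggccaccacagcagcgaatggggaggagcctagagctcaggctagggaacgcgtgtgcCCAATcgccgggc
Fasn: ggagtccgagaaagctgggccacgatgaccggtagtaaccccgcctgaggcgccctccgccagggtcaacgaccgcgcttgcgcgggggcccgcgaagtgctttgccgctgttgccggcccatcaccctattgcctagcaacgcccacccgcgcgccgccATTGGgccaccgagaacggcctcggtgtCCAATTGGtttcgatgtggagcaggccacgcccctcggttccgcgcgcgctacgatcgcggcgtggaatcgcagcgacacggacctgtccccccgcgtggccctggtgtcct
The Acly window held 4 GGGCGG matches, at -117, -88, -76 and -27 from the start site, and 1 CCAAT match at 38. The Fasn window held 3 CCAAT matches, at -90, -62 and -59, the last 2 of which overlap on opposite strands.

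The deposited value is a score whose unit, scale and direction are not stated. Scores ran from 0 to 62.1, and between 33.5% and 53.7% of an array lay above 16, the limit of log2 values from a 16-bit scan. Array medians were 15.7 and 14.5 for Alox5-/- LSC, 15.5 and 15.5 for LSC, and 15.6 and 16.4 for HSC. Genes that every cell uses, such as Actb and Ldha, had a list median between the 29.1st and the 60.9th percentile of an array. Genes of other organs, such as Ins2 and Myh6, had list medians between the 62.2nd and the 79.2nd. Both lists were widely spread. Mean percentiles of single probe sets ran from 0.3 to 95.7 in the first, both of them Tpt1. They ran from 28.7 (Myh6) to 93.6 (Krt1) in the second. Genes of the sorted phenotype, such as Kit and Cd34, had list medians between the 35.1st and the 61.0th, with 8 of 10 measured and Ly6a not among them. Markers of mature blood lineages lay between the 38.2nd and the 65.1st, marrow adipocyte and stromal markers between the 47.4th and the 67.6th, and hepatocyte markers between the 71.1st and the 84.9th. By gene, Kit scored 11.5 and 10.5 in Alox5-/- LSCs, 11.2 and 14.5 in LSCs, and 12.6 and 15.4 in HSCs. The hepatocyte gene Alb scored 18.6 and 18.2 in Alox5-/- LSCs, 17.9 and 17.2 in LSCs, and 18.2 and 17.5 in HSCs. Ptprc ran from 9.05 to 11.97 over the 6 arrays and Plin1 from 17.3 to 21.8. Cd34 and Meis1 had lower and Slamf1 and Procr higher scores in both Alox5-/- LSCs and LSCs than in HSCs at an unadjusted p under 0.05, as did the B cell gene Cd79a, lower in both. Klrb1c, a natural killer cell gene, had lower scores in Alox5-/- LSCs than in LSCs and HSCs at that p. Their part in the results below was not tested. No marker probe set was at 0. The scores thus do not place the cells by their markers, and a higher score cannot be read as more transcript. All values below are scores or differences of scores unless said otherwise, and no score of 1 probe set is set against that of another.

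**Figure D1:**
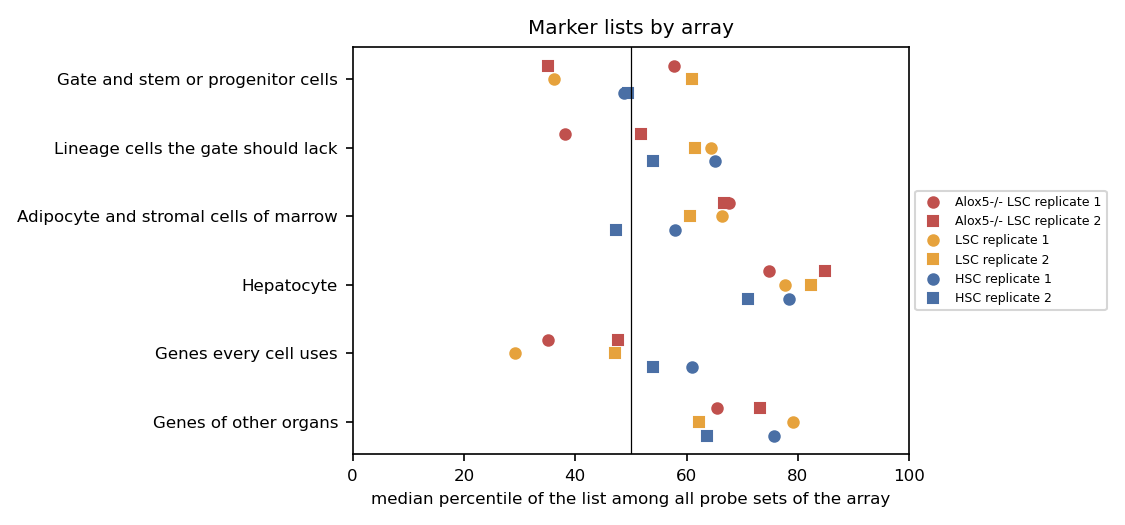
Median percentile, among all probe sets of an array, of 6 marker lists, with a point for each of the 6 arrays (circles replicate 1, squares replicate 2). Genes that every cell uses sit at the 29.1st to the 60.9th percentile and genes of other organs at the 62.2nd to the 79.2nd.

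Scd1, the desaturase that converts stearate to oleate in most mouse tissues, did not separate the groups. Scd1 scored 14.3 and 16.8 in Alox5-/- LSCs, 18.0 and 13.6 in LSCs, and 16.8 and 16.3 in HSCs. The LSC arrays spanned all others, and their gap of 4.40 was at the 88.9th percentile of replicate gaps in that group, while the HSC arrays lay 0.528 apart. Group means were 15.6 ± 1.74 in Alox5-/- LSCs, 15.8 ± 3.11 in LSCs and 16.6 ± 0.373 in HSCs (SD, n = 2 each, as for every mean below). For Scd1, LSC minus HSC was -0.82 ± 1.80 (SE), with a 95% interval from -5.23 to 3.598. The difference of Alox5-/- LSC minus LSC was -0.19 (95% interval -4.60 to 4.23), and Alox5-/- LSC minus HSC was -1.01 (-5.42 to 3.41). The sign of LSC minus HSC depended on which LSC array was read, at -3.01 with replicate 1 left out and 1.38 with replicate 2 left out. So did that of Alox5-/- LSC minus LSC, at 2.01 and -2.39 with the same arrays left out, and it was 0.22 after array medians were subtracted. In bulk RNA, fewer cells of a type and less RNA per cell cannot be told apart, here or below.

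Scd2, the desaturase best known from brain and developing tissues, was the one member whose 2 LSC arrays both lay below both HSC arrays. Scd2 scored 13.4 and 9.20 in Alox5-/- LSCs, 9.49 and 9.15 in LSCs, and 11.9 and 13.4 in HSCs. The LSC arrays lay close together, and the Alox5-/- LSC arrays were split between the LSC and the HSC scores. For Scd2, LSC minus HSC was -3.35 ± 1.67 (SE; 95% interval -7.45 to 0.738; unadjusted p = 0.0916, adjusted p = 0.993), and it ran from -4.09 to -2.62 when any 1 array was left out. The Alox5-/- LSC minus LSC value was 1.99 (95% interval -2.11 to 6.08), which became 4.09 with Alox5-/- LSC replicate 2 left out and -0.12 with its partner left out. Against HSC it was -1.37 (-5.46 to 2.72), and 0.73 with Alox5-/- LSC replicate 2 left out.

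Scd3, the family member known from skin and its sebaceous glands, varied little. Its scores were 20.6 and 18.4 in Alox5-/- LSCs, 20.4 and 19.8 in LSCs, and 19.4 and 19.8 in HSCs. The 3 groups overlapped, and the range over all 6 arrays was 2.12, at the 11.8th percentile of all probe sets. Its LSC minus HSC difference was 0.49 (95% interval -2.55 to 3.52), Alox5-/- LSC minus LSC was -0.60 (-3.63 to 2.43) and Alox5-/- LSC minus HSC was -0.11 (-3.15 to 2.92). The last was 0.77 after array medians were subtracted. Scd4, the neighbouring desaturase outside the 8 members, had mean scores of 14.5 in Alox5-/- LSCs, 14.9 in LSCs and 15.6 in HSCs, and its unadjusted p was at least 0.410 in each comparison.

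**Figure D2:**
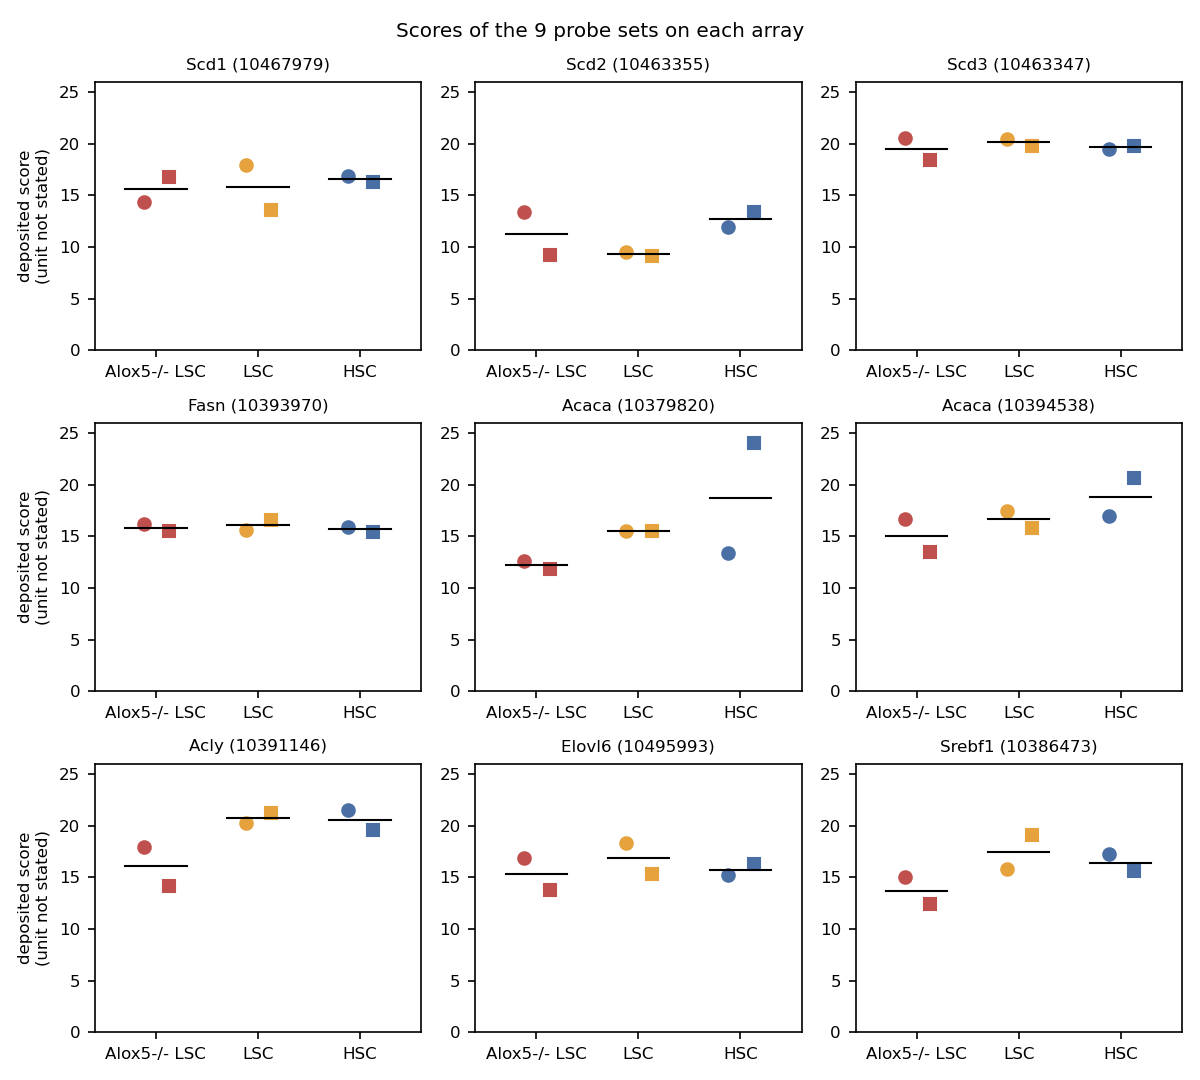
Deposited score (unit not stated) of each of the 9 probe sets on the 6 arrays, by group, with circles for replicate 1, squares for replicate 2 and a line at the group mean. Both Acly scores of Alox5-/- LSCs (18.0 and 14.2) lie below all 4 other scores (19.6 to 21.5), while the Fasn scores lie between 15.4 and 16.6 on every array.

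Acly, the ATP citrate lyase that supplies acetyl-CoA, had the smallest p of the 9 probe sets in both comparisons with Alox5-/- LSCs, and did not pass correction in either. It scored 18.0 and 14.2 in Alox5-/- LSCs, 20.3 and 21.3 in LSCs, and 21.5 and 19.6 in HSCs. Both Alox5-/- LSC arrays were lower than the other 4, and LSC and HSC arrays overlapped. Group means were 16.1 ± 2.69 in Alox5-/- LSCs, 20.8 ± 0.708 in LSCs and 20.5 ± 1.35 in HSCs. Acly differed by -4.69 ± 1.64 in Alox5-/- LSC minus LSC (SE; 95% interval -8.72 to -0.664; unadjusted p = 0.0292, adjusted p = 1.00). It differed by -4.46 ± 1.64 in Alox5-/- LSC minus HSC (95% interval -8.49 to -0.434; unadjusted p = 0.0351, adjusted p = 0.769). These differences share the Alox5-/- LSC arrays. The difference of LSC minus HSC was 0.23 (95% interval -3.80 to 4.26).

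Both Acly scores of Alox5-/- LSCs lay below the other 4. Neither difference from LSC or HSC could therefore change sign with 1 array left out. Leaving out an array of the group not compared could not change the difference itself. Against LSC the Acly difference was -6.59 with Alox5-/- LSC replicate 1 left out and -2.79 with Alox5-/- LSC replicate 2 left out. The remaining fits lay between these values. Of the 6 fits, 3 had an unadjusted limma p under 0.05, and the largest was 0.138. Against HSC it was -6.36 and -2.56 with the same arrays left out, 2 of the 6 fits were under 0.05, and the largest limma p was 0.166. Alox5-/- LSC replicate 2 also had the lowest median of all arrays. It held the lowest score for 6 of the 9 member probe sets and for 33.6% of all probe sets. With array medians subtracted, the Acly difference was -4.29 against LSC (unadjusted p = 0.0277) and -3.58 against HSC (unadjusted p = 0.0522).

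Acaca, the acetyl-CoA carboxylase that commits acetyl-CoA to fatty acid synthesis, was measured by 2 probe sets. Probe set 10379820 scored 12.6 and 11.9 in Alox5-/- LSCs, 15.5 and 15.5 in LSCs, and 13.3 and 23.99 in HSCs. Probe set 10394538 scored 16.7 and 13.4 in Alox5-/- LSCs, 17.5 and 15.8 in LSCs, and 16.9 and 20.6 in HSCs. Both probe sets were highest on HSC replicate 2 and lowest on Alox5-/- LSC replicate 2. The gap of 10.7 between the HSC scores of the first was at the 98.7th percentile of such gaps, whereas its LSC scores differed by 0.038.

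For Acaca, Alox5-/- LSC minus HSC was -6.43 ± 3.27 (SE; unadjusted p = 0.0973) for 10379820 and -3.72 ± 1.83 (unadjusted p = 0.0888) for 10394538. The first was -11.8 without HSC replicate 1 and -1.102 without HSC replicate 2, and the second was -5.56 and -1.87 without the same arrays. Against LSC the differences were -3.25 (95% interval -11.3 to 4.77) and -1.61 (-6.09 to 2.88). The second was 0.010 with Alox5-/- LSC replicate 2 left out. Between LSC and HSC they were -3.18 (95% interval -11.2 to 4.84) and -2.11 (-6.59 to 2.38), and for 10379820 it was -8.51 without HSC replicate 1 and 2.15 without HSC replicate 2. The 2 probe sets had the same sign in each comparison over all 6 arrays, and none of these differences passed the test.

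Fasn, the multi-enzyme fatty acid synthase, had one of the narrowest spreads on the arrays. It scored 16.2 and 15.5 in Alox5-/- LSCs, 15.6 and 16.6 in LSCs, and 15.9 and 15.4 in HSCs. The groups overlapped throughout, and the range of 1.14 over all 6 arrays lay at percentile 1.2 of all probe sets, whose median range was 4.30. Fasn differed by 0.43 in LSC minus HSC (95% interval -2.28 to 3.14), by -0.27 in Alox5-/- LSC minus LSC (-2.98 to 2.44) and by 0.17 in Alox5-/- LSC minus HSC (-2.54 to 2.88). After array medians were subtracted the second was 0.14. The fit moderates each probe set's variance towards that of the others, so these intervals are wider than the scores of Fasn alone would give.

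Elovl6, the elongase that makes stearate from palmitate, scored 16.9 and 13.8 in Alox5-/- LSCs, 18.4 and 15.3 in LSCs, and 15.2 and 16.3 in HSCs. Each group overlapped each other group. The Alox5-/- LSC replicates differed by 3.10 and the LSC replicates by 3.02, more than the distance between any of the group means. Elovl6 differed by 1.13 in LSC minus HSC (95% interval -2.94 to 5.20), and by -0.38 with LSC replicate 1 left out. It differed by -1.53 in Alox5-/- LSC minus LSC (-5.60 to 2.55), and by 0.025 with Alox5-/- LSC replicate 2 left out. It differed by -0.40 in Alox5-/- LSC minus HSC (-4.47 to 3.68), and 0.49 after array medians were subtracted.

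Srebf1, the regulator of the enzymes above, had lower scores on both Alox5-/- LSC arrays than on any other array. So did Acly and Acaca probe set 10379820. Of all probe sets, 31.6% had no overlap between Alox5-/- LSC and LSC arrays, and 35.7% none between Alox5-/- LSC and HSC arrays. Alox5-/- LSC replicate 2 held the lowest score for 33.6% of all probe sets. Srebf1 scored 15.0 and 12.4 in Alox5-/- LSCs, 15.8 and 19.1 in LSCs, and 17.2 and 15.6 in HSCs. The distance between the nearest Alox5-/- LSC and HSC scores was small, and the LSC and HSC arrays overlapped. Srebf1 differed by -3.77 ± 1.68 in Alox5-/- LSC minus LSC (SE; 95% interval -7.88 to 0.339; unadjusted p = 0.0658, adjusted p = 1.00), and by -5.43 and -2.11 with the first or the second LSC array left out. Against HSC the Alox5-/- LSC difference was -2.71 (-6.83 to 1.40; unadjusted p = 0.157), and -1.41 with Alox5-/- LSC replicate 2 left out. In LSC minus HSC it was 1.06 (-3.05 to 5.17), and -0.60 with LSC replicate 2 left out.

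**Figure D3:**
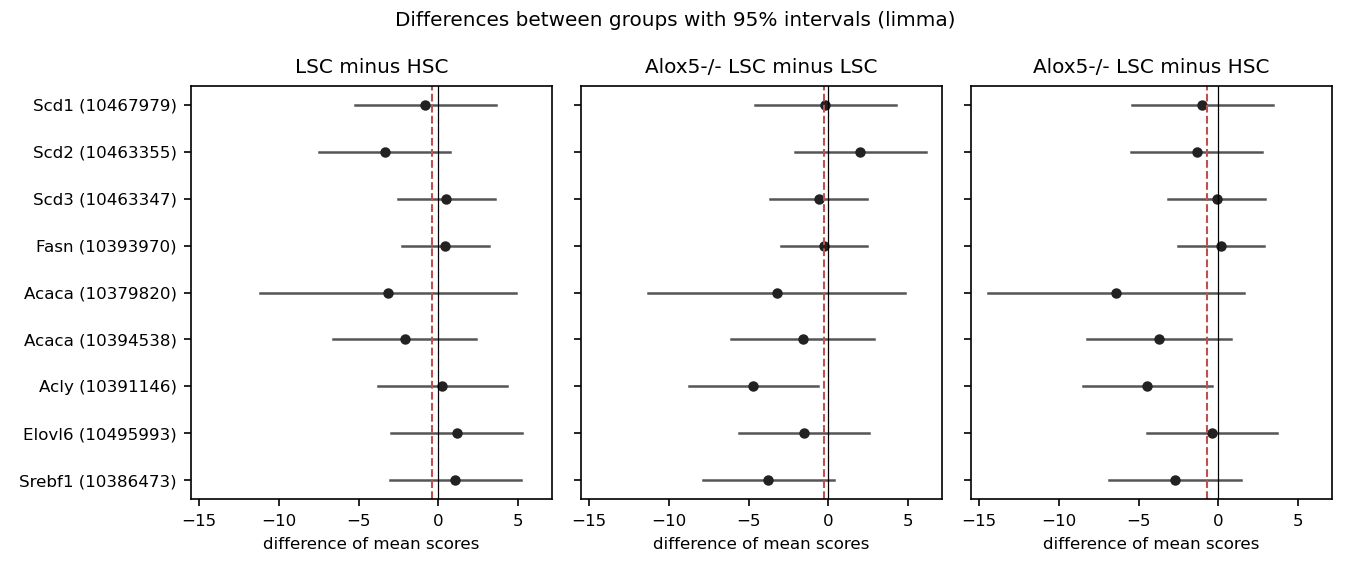
Difference of mean scores for the 9 probe sets in the 3 comparisons, with 95% intervals from limma as lines and the median of all probe sets as a dashed line. The intervals exclude 0 for Acly in both comparisons with Alox5-/- LSCs (-8.72 to -0.664 and -8.49 to -0.434) and include it in all other rows.

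The first comparison, LSC against HSC, asked what BCR-ABL changes in these cells. Of the 9 member probe sets, 0 had an adjusted p under 0.05 (limma, adjusted by Benjamini-Hochberg over all probe sets), where the share over all 34499 was 0%. At an unadjusted p under 0.05 there were also 0 member probe sets, against 4.94% of all probe sets. Differences were positive for Scd3, Fasn, Acly, Elovl6 and Srebf1 and negative for Scd1, Scd2 and both Acaca probe sets. Their median was 0.23, and the median of all probe sets was -0.43. The groups did not overlap for 1 member, Scd2, against 34.2% of all probe sets.

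The second comparison, Alox5-/- LSC against LSC, asked what the absence of Alox5 changes in BCR-ABL cells. The adjusted p was under 0.05 for 0 of 9 member probe sets and 0% of all probe sets, and the unadjusted p for 1 member, Acly, and 3.96% of all. Differences were negative for 8 of the 9 member probe sets and positive for that of Scd2. Their median was -1.53, and that of all probe sets was -0.28, with 57.4% of all probe sets negative. Alox5-/- LSC replicate 2 held the lowest score for 6 of the 9 probe sets. With that array left out, Scd3, Elovl6 and Acaca probe set 10394538 differed by 0.46, 0.025 and 0.010. After array medians were subtracted, Scd1 and Fasn were positive, at 0.22 and 0.14. The groups did not overlap for 3 member probe sets, those of Acly and Srebf1 and Acaca 10379820, each lower in Alox5-/- LSCs, against 31.6% of all probe sets.

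In the third comparison, Alox5-/- LSC against HSC, the adjusted p was again under 0.05 for 0 member probe sets and 0% of all probe sets. The unadjusted p was under 0.05 for Acly, 1 of 9, and for 6.44% of all. Differences were negative for 8 of the 9 member probe sets and positive for that of Fasn. Their median was -1.37 against -0.73 over all probe sets, of which 67.1% were negative. The groups did not overlap for 4 member probe sets, those of Acly and Srebf1 and both of Acaca, against 35.7% of all probe sets. After array medians were subtracted, Scd3 and Elovl6 turned positive in this comparison. With Alox5-/- LSC replicate 2 left out, Scd2, Scd3 and Elovl6 differed by 0.73, 0.95 and 1.16. This comparison shares its arrays with the first and second and is no independent check of either.

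**Figure D4:**
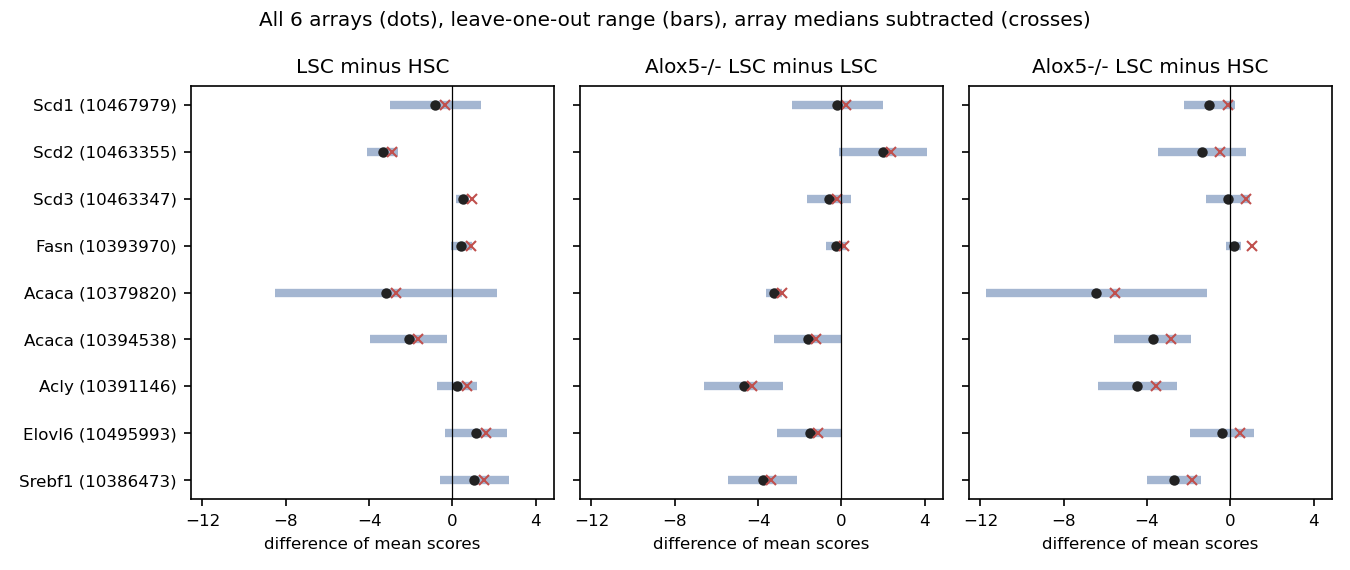
Difference of mean scores for the 9 probe sets over all 6 arrays (dots), its range when each array in turn was left out (bars), and its value after array medians were subtracted (crosses). The bar for Acly stays below 0 in both comparisons with Alox5-/- LSCs (-6.59 to -2.79 and -6.36 to -2.56). So do the bars for Srebf1 and Acaca probe set 10379820. No bar can cross 0 where the scores of the groups do not overlap. The bar for Scd1 crosses 0 in all 3 comparisons.

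Lipid metabolism outside the 8 members was read in 7 lists of 110 genes, of which 100 were measured by 107 probe sets. No gene passed correction in any comparison, with 0 of 107 at an adjusted p under 0.05 by limma. At an unadjusted p under 0.05 there were 8 probe sets in LSC against HSC, 3 in Alox5-/- LSC against LSC and 7 in Alox5-/- LSC against HSC. These were 7.48%, 2.80% and 6.54% of the 107, beside 4.94%, 3.96% and 6.44% of all probe sets. Of the 8, 6 had lower scores in LSCs, and after array medians were subtracted it was 3 of 5. The counts rested on single arrays. Leaving out HSC replicate 1 made the first count 12, and leaving out LSC replicate 1 or 2 made it 4 or 3. The second count became 0 with LSC replicate 2 left out and 11 with Alox5-/- LSC replicate 2 left out. The third became 15 with HSC replicate 1 left out, 12 with Alox5-/- LSC replicate 2 left out and 4 with either LSC array left out. For every list gene named below at an unadjusted p under 0.05, that p was above 0.05 under at least 1 other setting or with at least 1 array left out.

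In LSC against HSC, the list on supply of acetyl-CoA, malonyl-CoA and NADPH gave 3 of 14 probe sets at p under 0.05. The share over all probe sets was 4.94%. Slc25a1, the mitochondrial citrate carrier that supplies Acly, scored 15.9 and 14.9 in LSCs and 13.1 and 10.5 in HSCs, a difference of 3.65 ± 1.32 (SE). Pdha1, a subunit of pyruvate dehydrogenase, scored 17.0 and 17.4 in LSCs and 21.3 and 19.5 in HSCs, a difference of -3.18 ± 1.19. Prkaa1, a catalytic subunit of the AMP-activated kinase that inhibits Acaca, scored 13.0 and 11.5 in LSCs and 15.1 and 16.8 in HSCs, a difference of -3.71 ± 1.37. The LSC and HSC arrays did not overlap for 5 of the 14 probe sets of that list, these 3 among them. Over all probe sets the share was 34.2%. After array medians were subtracted, the unadjusted limma p was 0.0334 for Slc25a1, 0.0980 for Pdha1 and 0.0324 for Prkaa1. Slc25a1 differed by 2.37 with HSC replicate 2 left out (unadjusted p = 0.153).

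Desaturases and elongases other than the members gave 1 of 20 probe sets at p under 0.05 in LSC against HSC. This was Hacd1, a dehydratase of the elongation cycle, whose probe set 10489343 scored 31.8 and 29.9 in LSCs and 24.2 and 16.6 in HSCs. Its second probe set differed by 5.37 ± 2.70 (SE; unadjusted p = 0.0937), where the first differed by 10.5 ± 2.82 (unadjusted p = 0.0100). The first was 6.69 with HSC replicate 2 left out and 14.2 with HSC replicate 1 left out, and its unadjusted p was 0.115 on percentile ranks. The list median was -0.65, with 17 of 20 probe sets below 0, beside 60.8% of all probe sets. Oxsm, the condensing enzyme of mitochondrial fatty acid synthesis, scored 16.3 and 14.7 in LSCs and 19.8 and 20.9 in HSCs, a difference of -4.84 ± 1.26, and was 1 of 8 in its list.

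SREBP and LXR control genes had 0 of 16 probe sets at p under 0.05 in LSC against HSC. Their median difference was -1.09, beside -0.43 over all probe sets, and -0.61 after array medians were subtracted. The list median was -0.37 with HSC replicate 2 left out and -0.30 with the number in the description label as a covariate.

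Genes of fatty acid use were also read in LSC against HSC. Uptake and binding gave 2 of 11 probe sets and oxidation 1 of 20 at p under 0.05, beside 4.94% of all probe sets. These were all lower in LSCs, where the median difference of all probe sets was -0.43. Fabp4, a lipid chaperone of adipocytes and macrophages, scored 15.0 and 16.8 in LSCs and 23.7 and 24.2 in HSCs, a difference of -8.07 ± 2.26 (SE). Marrow adipocyte and stromal markers had 0 of 8 probe sets at that p, with Adipoq at 20.8 and 17.7 in LSCs and 15.5 and 20.8 in HSCs. Whether such cells had a part in the Fabp4 difference was not tested. The fatty acid transporter Slc27a1 scored 14.9 and 15.9 in LSCs and 20.4 and 18.1 in HSCs. Ppard, a nuclear receptor that drives oxidation genes, scored 14.7 and 13.6 in LSCs and 16.5 and 17.8 in HSCs. After array medians were subtracted, the unadjusted limma p was 0.00744 for Fabp4, 0.0512 for Slc27a1 and 0.0760 for Ppard. Activation and storage genes gave 0 of 18. Lpin1, a phosphatidate phosphatase, and Agpat1, an acyltransferase, had the smallest p of that list over the 3 comparisons, and they differed by -2.12 ± 1.29 and -2.55 ± 1.33 between LSC and HSC.

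In Alox5-/- LSC against LSC, the 3 probe sets at p under 0.05 were those of Oxsm, Hacd2 and Fabp5. Oxsm scored 21.0 and 19.6 in Alox5-/- LSCs against 16.3 and 14.7 in LSCs, a difference of 4.82 ± 1.26 (SE; unadjusted p = 0.00892, adjusted p = 1.00). Its sign was opposite to that in LSC against HSC, a comparison that shares the LSC arrays. Hacd2, another dehydratase of elongation, scored 13.7 and 15.3 in Alox5-/- LSCs and 17.4 and 18.1 in LSCs, a difference of -3.26 ± 1.23, and its second probe set differed by -0.68 ± 1.64. Fabp5, an epidermal-type lipid chaperone, scored 13.0 and 13.8 in Alox5-/- LSCs and 18.1 and 30.7 in LSCs, a difference of -11.0 ± 4.05 that was -4.71 with LSC replicate 2 left out and -17.3 with LSC replicate 1 left out. Its second probe set differed by 0.59 ± 1.39. SREBP and LXR control genes had a median of 1.15, with 13 of 16 probe sets above 0 and 0 at p under 0.05. Over all probe sets the median was -0.28, and 57.4% were below 0. The list median was 0.17 with the first Alox5-/- LSC array left out and 2.19 with the second left out.

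Against HSC, Alox5-/- LSC scores of Hacd1 (11.9 ± 2.82, SE) and Mlx (3.93 ± 1.58), the partner of the carbohydrate-response factor ChREBP, were higher at p under 0.05. With HSC replicate 2 left out Mlx differed by 2.23 (unadjusted p = 0.225). Lower scores at that p were found for Prkaa1 (-4.83 ± 1.37), Slc27a1 (-3.96 ± 1.27), Hacd2 (-3.60 ± 1.23), Pdha1 (-3.40 ± 1.19) and Hadh (-2.77 ± 1.095), a dehydrogenase of beta-oxidation. The second probe set of Hacd1 differed by -0.44 ± 2.70 in this comparison. Unadjusted p ran from 0.00562 for Hacd1 to 0.0474 for Mlx. Of these, Hacd1, Prkaa1, Slc27a1 and Pdha1 also had p under 0.05 in LSC against HSC, with the same HSC arrays in both. At an unadjusted p under 0.05, 2 list probe sets were higher and 5 lower in Alox5-/- LSC against HSC. After array medians were subtracted, 4 were higher and 1 lower at that p (limma).

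**Figure D5:**
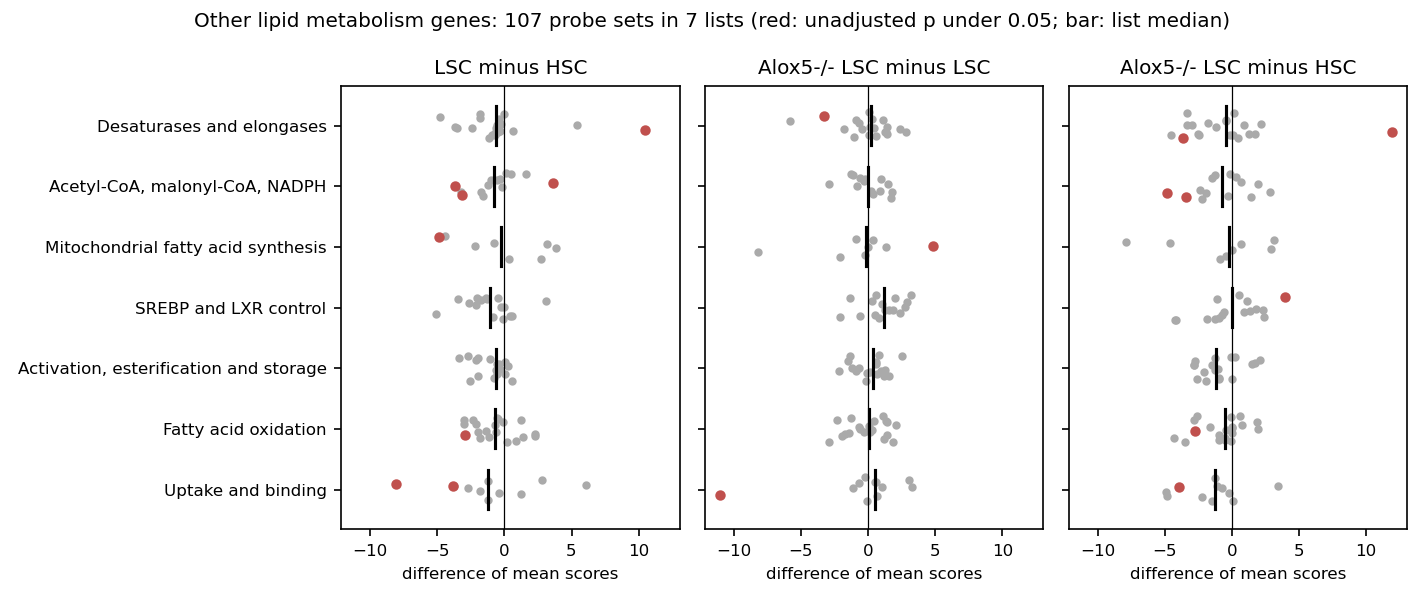
Difference of mean scores for the 107 probe sets of 7 lipid metabolism lists in the 3 comparisons, with a point for each probe set, red where the unadjusted p was under 0.05, and a bar at each list's median. Hacd1 stands farthest to the right in both comparisons with HSCs (10.5 and 11.9), and Fabp5 farthest to the left in Alox5-/- LSC minus LSC (-11.0).

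The probe sets with the score pattern most like that of Scd1 were found by the root mean square difference over the 6 arrays, each probe set first centred on its own mean. Among 19160 named probe sets outside the members, the nearest were Lhfpl2 (0.284), Fgf2os (0.316) and Ffar4 (0.411), a receptor for long-chain fatty acids, where the median was 2.13. Ffar4 scored 16.2 and 18.1 in Alox5-/- LSCs, 19.02 and 15.9 in LSCs, and 18.3 and 17.7 in HSCs. For Fasn the nearest were Sval1 (0.167), Mir216a (0.216) and Rpn2 (0.220), a subunit of the oligosaccharyltransferase, with a median of 1.43. With this many probe sets and 6 arrays, some lie near any pattern, and the distances are a description only.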

How the data were processed

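RNA of sorted cells was hybridised to Affymetrix whole-transcript arrays, 6 in all, from 100 to 300 ng of total RNA per the labels' protocols. Each array has a deposited score for each probe set. The authors used Affymetrix Expression Console 1.1 and RMA, per the submitters' processing notes. The unit of the score, the genome build and any filter are not given in the sources used here. Many scores lie above 16, the log2 limit given above, so how the scores relate to RMA values is unclear. No array had a value for 1058 of the 35557 probe sets. Symbols came from the platform annotation, which gave 1 symbol to 21601 probe sets with values, several to 1265 and none to 11633.

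Differences were tested with limma 3.58.1 in R 4.3.3 over all 34499 probe sets, with a mean per group, a shared spread with 3 residual degrees of freedom and a mean-variance trend. Tests were two-sided, adjusted by Benjamini-Hochberg, with a threshold of 0.05, and were tested on simulated data. The number of arrays limits the precision. Named were all member probe sets, list genes at an unadjusted p under 0.05 (or, where a list had none in any comparison, the 2 with the smallest p), fixed marker genes, and the 3 nearest score patterns to Scd1 and Fasn. Scd4 and the marker genes Cd79a, Meis1, Slamf1 and Procr were named after their values were seen. The members and lists were chosen with earlier results of these data known. Alternatives were 11 other settings and leaving out each of the 6 arrays.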

Additional observations from a re-analysis of the deposited data

How the results depend on the processing

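No member and no probe set passed correction under the 11 other settings or without any 1 array, so those counts were 0 throughout. Differences between replicates 1 and 2 correlated at -0.048 to -0.025 between groups, so no shift shared by replicate number was seen. These correlations cannot show whether arrays of the same replicate number were handled together. With the replicate block the unadjusted p was under 0.05 for 1517, 1233 and 1923 probe sets in the 3 comparisons, against 1704, 1365 and 2223 without it, and 0 passed correction. Without HSC replicate 1 the first count was 2630, and without Alox5-/- LSC replicate 2 the second was 2144. Of the 1704, 1365 and 2223 probe sets of the fits over all 6 arrays, 69.9%, 69.1% and 82.5% had lower scores. The shares were 53.1%, 48.6% and 49.1% in the fits with array medians subtracted. Over all probe sets, the median of Alox5-/- LSC minus LSC was -0.28, and 0.19 with Alox5-/- LSC replicate 2 left out. Acly is absent from the fit that drops mean scores above the 75th percentile.

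Of 285 member differences under other settings, 13 changed sign, and the causes were not tested. In Alox5-/- LSC minus LSC, subtracting medians, quantile normalization and percentile rank gave 0.22, 0.37 and 3.13 for Scd1 and 0.14, 0.14 and 1.43 for Fasn. In Alox5-/- LSC minus HSC they gave 0.77, 0.72 and 3.98 for Scd3 and 0.49, 0.42 and 4.34 for Elovl6. The percentile rank values are in percentile points, so their size cannot be set against that of the score differences. With the description number as a covariate Acaca 10379820 was 1.14 in Alox5-/- LSC minus LSC.

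Leaving out 1 array changed 23 of 162 signs. In LSC minus HSC the ranges were -3.01 to 1.38 for Scd1, -0.052 to 0.92 for Fasn, -8.51 to 2.15 for Acaca 10379820, -0.72 to 1.18 for Acly, -0.38 to 2.64 for Elovl6 and -0.60 to 2.71 for Srebf1. In Alox5-/- LSC minus LSC they were -2.39 to 2.01 for Scd1, -0.12 to 4.09 for Scd2, -1.66 to 0.46 for Scd3, -0.75 to 0.22 for Fasn, -3.22 to 0.010 for Acaca 10394538 and -3.08 to 0.025 for Elovl6. In Alox5-/- LSC minus HSC they were -2.24 to 0.23 for Scd1, -3.47 to 0.73 for Scd2, -1.18 to 0.95 for Scd3, -0.19 to 0.53 for Fasn and -1.95 to 1.16 for Elovl6.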
